A study of Mus musculus with 4 samples.

Results

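Transcript levels of Trp53, the gene of the tumour suppressor p53, and of 9 genes that p53 is known to activate directly were compared between 4T1-A and 4T1-S, which both derive from the mouse mammary tumour line 4T1. The members were taken by name from the array annotation: Trp53, Mdm2, Cdkn1a, Ccng1, Bax, Fas, Perp, Ei24, Sesn2 and Trp53inp1. They are 10 of 27670 gene names on the array and are read by 16 of 41174 probes. All 10 genes had a probe well above background on all 4 arrays. Of the 16 probes 15 were above background on all 4 arrays, and the other, a probe for Fas, on none.

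4T1 is an established carcinoma line of BALB/c mice, and the series title describes 4T1-S as strongly immunogenic. Neither sub-line is labelled with a treatment or a genetic change, and how they were derived from 4T1 is not given in the sources used here. Each was measured on 2 one-colour Agilent arrays of Cy3-labelled RNA, all 4 on 1 slide, with 4T1-A at the first pair of positions and 4T1-S at the other. Position on the slide is thus tied to the sub-line, and the effects of each cannot be told apart. The labels do not say whether arrays of the same sub-line are from different cultures. If they are not, the spread behind the p-values is technical; in either case it is the spread of these arrays alone. The share of spots well above background ran from 54.9 to 59.2 percent. With 2 arrays a sub-line, precision is limited by their number.

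p53 is a transcription factor that is held at a low level by the ubiquitin ligase Mdm2, itself a p53 target, and that accumulates after DNA damage and other stress. It then switches on genes that stop the cell cycle, start apoptosis or limit metabolic and oxidative stress, and many of these genes also answer to other transcription factors. Published work describes 4T1 as lacking functional p53. Neither the sequence of Trp53 nor p53 protein was measured here.

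p53 binds pairs of a palindromic decamer, and that p53 decamer consensus was searched for in RefSeq promoter sequences of build GRCm38.p6, from 250 bases before to 50 bases after each gene's start. Of the 10 members, 8 had a promoter in that table, and 6 of these 8 held an exact match, against 9.55 percent of 27025 genes with a promoter there. The members were chosen as p53 targets, so this share is a description. A match is no evidence of binding, and no match says only that these letters are absent from this window. The sequences below are shown because they hold the matches, with the matching decamers in capitals, written 5′ to 3′ on the gene's strand.
Trp53: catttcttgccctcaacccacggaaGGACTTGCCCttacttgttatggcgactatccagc
Mdm2: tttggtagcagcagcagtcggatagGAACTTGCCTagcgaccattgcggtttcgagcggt
Cdkn1a: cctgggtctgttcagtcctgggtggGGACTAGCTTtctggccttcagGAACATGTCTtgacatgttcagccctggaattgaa
Ccng1: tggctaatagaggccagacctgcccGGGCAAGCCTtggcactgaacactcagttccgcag
Bax: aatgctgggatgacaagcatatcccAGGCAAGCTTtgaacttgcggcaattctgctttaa
These lie at chr11:69580259-69580318 (plus strand), chr10:117710910-117710969 (minus), chr17:29090881-29090962 (plus), chr11:40755437-40755496 (minus) and chr7:45467065-45467124 (minus). Cdkn1a has 2 starts in the table. Both matches lie before the upstream start, and the promoter of the other start holds none.

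For the 3 members that passed the test between the sub-lines, the 250 bases before the start are shown whole.
Fas: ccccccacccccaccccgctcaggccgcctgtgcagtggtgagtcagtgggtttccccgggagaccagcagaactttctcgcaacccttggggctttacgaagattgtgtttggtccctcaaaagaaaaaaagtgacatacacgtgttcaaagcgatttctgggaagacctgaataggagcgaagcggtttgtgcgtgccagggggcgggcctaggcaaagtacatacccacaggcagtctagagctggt
Sesn2: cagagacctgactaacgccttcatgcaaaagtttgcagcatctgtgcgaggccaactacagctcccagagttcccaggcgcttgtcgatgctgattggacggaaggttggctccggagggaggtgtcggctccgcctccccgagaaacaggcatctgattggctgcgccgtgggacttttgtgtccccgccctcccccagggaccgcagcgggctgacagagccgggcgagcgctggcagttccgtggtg
Ei24: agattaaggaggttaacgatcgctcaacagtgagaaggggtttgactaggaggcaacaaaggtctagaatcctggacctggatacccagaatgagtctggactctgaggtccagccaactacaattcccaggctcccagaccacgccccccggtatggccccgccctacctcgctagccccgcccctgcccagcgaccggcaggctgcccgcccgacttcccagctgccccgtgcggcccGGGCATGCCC
They lie at chr19:34290409-34290658 (plus strand), chr4:132510457-132510706 (minus) and chr9:36797335-36797584 (minus). The promoter of Ei24 holds a match in the last 10 bases before the start, and those of Fas and Sesn2 hold none in this window.

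The members did not move as a block. Fas, a death receptor, and Sesn2, a stress-induced regulator of nutrient signalling, rose in 4T1-S, 2.46-fold and 2.38-fold. Ei24, an endoplasmic reticulum protein of autophagy, fell 1.97-fold. The remaining 7, among them Trp53 itself and the widely used p53 reporters Cdkn1a and Mdm2, did not pass. By limma with Benjamini-Hochberg adjustment over all genes, 2 of 10 members rose and 1 fell, and 7.01 percent of the 16161 genes tested were called, 4.0 percent as higher and 3.01 percent as lower. The median difference of the members was -0.08 on the log2 scale, against 0.13 over all genes tested. Values of the sub-lines did not overlap for 7 of the 10 genes, 4 higher and 3 lower in 4T1-S, and this held for 59.1 percent of all genes tested, 40.6 percent higher and 18.5 percent lower.

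**Figure D1:**
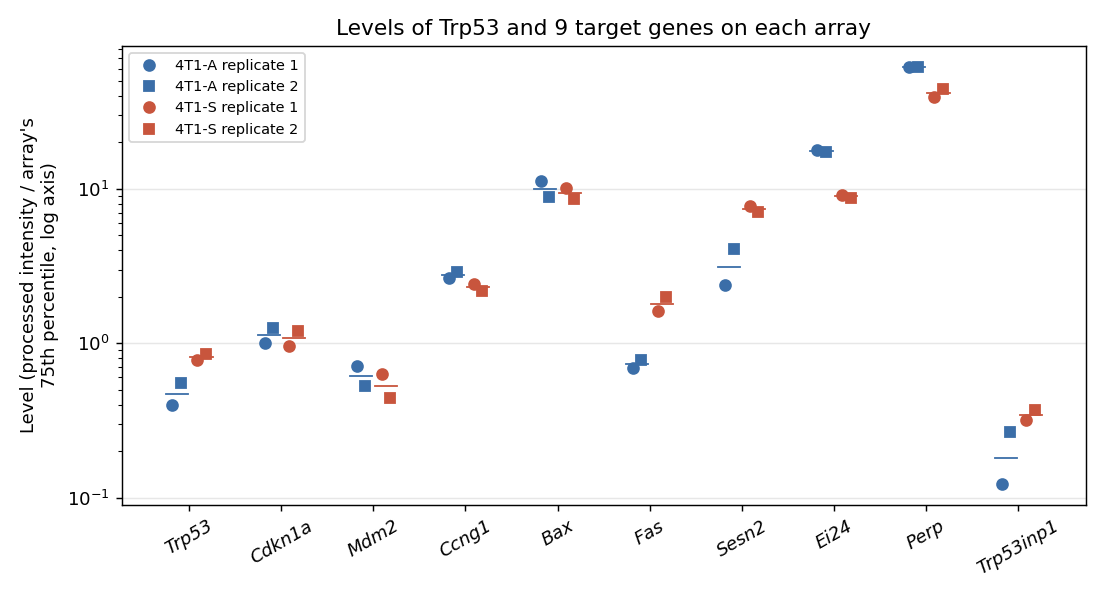
Level of each member on each array, as processed intensity over the 75th percentile of its array, on a log axis. Circles are replicate 1, squares replicate 2 and lines the mean of the log values of a sub-line, and levels of different genes cannot be compared because each probe has its own response. Fas, Sesn2, Trp53 and Trp53inp1 lay higher on both 4T1-S arrays, Ei24, Perp and Ccng1 lay lower, and the values of Cdkn1a, Mdm2 and Bax overlapped.

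Levels are processed intensities over the 75th percentile of the array, in the order 4T1-A replicates 1 and 2, then 4T1-S replicates 1 and 2. Differences are in log2 units, 4T1-A subtracted from 4T1-S, with limma's standard error (SE, n = 2 arrays per sub-line). limma pools variance over genes, with 5.73 prior against 2 residual degrees of freedom. The SE is thus not a gene's own spread over its arrays. Where a gene has 2 probes, the one with the higher mean was used (A_51_P345393 for Fas, A_52_P154710 for Sesn2 and A_52_P491849 for Trp53). Ei24 has 1 probe, A_51_P472751, printed as 1 spot per array. Adjusted p-values are limma's over all genes, and those of a gene's other probe are limma's over the 23669 probes that passed the same filter, of which 4.58 percent were called.

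Trp53 read 0.398 and 0.556 in 4T1-A, then 0.773 and 0.850 in 4T1-S. Both 4T1-S arrays were the higher, but the 4T1-A arrays also stood 1.40-fold apart. The difference was 0.79 ± 0.22, and it did not pass (adjusted p = 0.0712). Its other probe read 0.372 and 0.436, then 0.670 and 0.496, a smaller difference of 0.52 ± 0.22 (adjusted p = 0.201 over all probes). Without 4T1-A replicate 2 the difference of Trp53 was 1.03, and without 4T1-A replicate 1 it was 0.54.

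Mdm2, the ligase that targets p53 for destruction, read 0.716 and 0.527 in 4T1-A, then 0.631 and 0.444 in 4T1-S. These values overlapped, and in each sub-line replicate 1 was the higher. Its difference was -0.21 ± 0.25 with a 95% interval of -0.79 to 0.36 (adjusted p = 0.612). The other Mdm2 probe was lower on both 4T1-S arrays and gave -0.38 ± 0.20 (adjusted p = 0.270 over all probes).

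Cdkn1a encodes p21, the inhibitor of cyclin-dependent kinases through which p53 stops the cell cycle. Its levels were 1.01, 1.25, 0.963 and 1.20, overlapping and nearly the same in the sub-lines. The difference was -0.07 ± 0.21, with a 95% interval of -0.56 to 0.42 (adjusted p = 0.864). Ccng1, which encodes cyclin G1, read 2.63, 2.87, 2.41 and 2.19. It was lower on both 4T1-S arrays by a small margin, and the difference of -0.26 ± 0.19 did not pass (adjusted p = 0.399). Its other probe gave nearly the same, -0.25 ± 0.19.

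Bax is the BCL-2 family protein that opens the outer mitochondrial membrane in apoptosis. It read 11.2 and 8.86 in 4T1-A, then 10.1 and 8.63 in 4T1-S, and these overlapped. The difference was -0.09 ± 0.21, with a 95% interval of -0.58 to 0.39 (adjusted p = 0.801).

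Fas, the cell surface receptor for Fas ligand, read 0.688 and 0.774 in 4T1-A, then 1.61 and 2.01 in 4T1-S. The lower 4T1-S array was 2.07-fold above the higher 4T1-A array. Fas rose by 1.30 ± 0.20 (adjusted p = 0.0101), and it ranked 484 by absolute size among the 16161 genes. That call did not hold without 4T1-S replicate 2 (limma adjusted p = 0.103), with no filter on background (0.0763) and with spike-in scaling (0.134). The other Fas probe was well above background on 0 arrays and gives no fold.

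**Figure D2:**
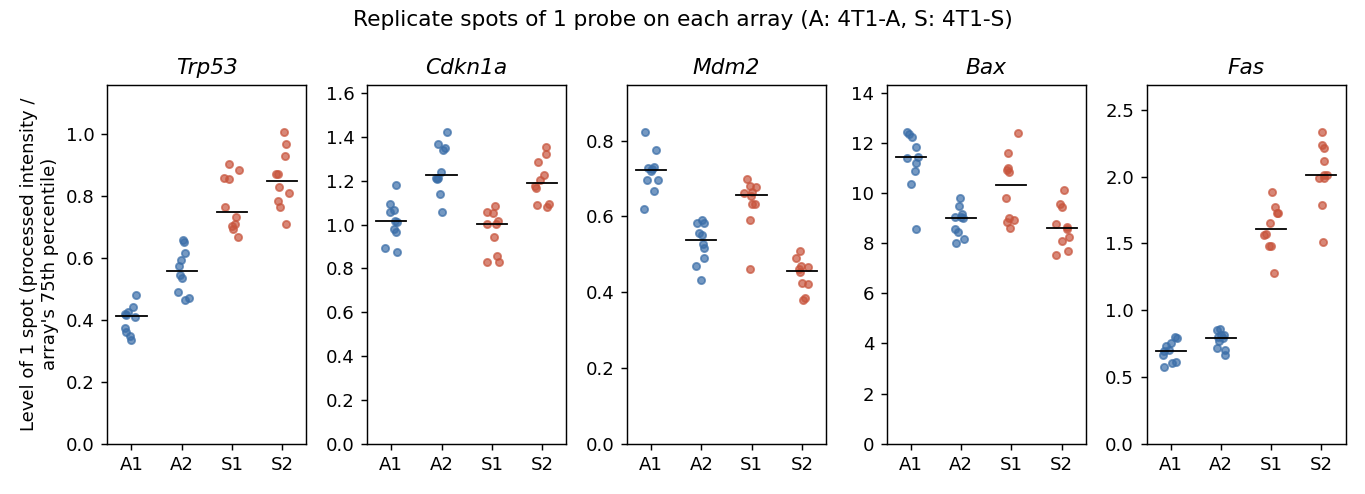
Levels of the replicate spots of the 5 probes printed 10 times per array (points, 1 spot each; line, their median), for 2 arrays of 4T1-A and 2 of 4T1-S, with each vertical axis starting at 0. All Fas spots of 4T1-S lay above all Fas spots of 4T1-A, while the Cdkn1a, Mdm2 and Bax spots of the sub-lines shared their range.

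Trp53, Cdkn1a, Mdm2, Bax and Fas were each printed as 10 spots of 1 probe on every array, which shows the error of the measurement within an array. The coefficient of variation of these spots lay between 6.43 and 13.1 percent. Spots repeat the same RNA and are no replicates of a sub-line. Fas spots spanned 0.573 to 0.857 over the 4T1-A arrays, and their lowest and highest values were 1.28 and 1.89 on 4T1-S replicate 1 and 1.51 and 2.34 on replicate 2. For Trp53 the highest 4T1-A spot was 0.659 and the lowest 4T1-S spot 0.668, so that the spots of the sub-lines just missed each other. Mdm2 spots had medians of 0.722, 0.539, 0.658 and 0.457, so the larger step lay between replicates 1 and 2 of either sub-line.

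Perp, a desmosomal tetraspan protein that p53 and its relative p63 control, read 61.8 and 61.6 in 4T1-A, then 39.3 and 44.4 in 4T1-S. Both 4T1-S arrays were lower, and the 4T1-A arrays were nearly equal. The difference of -0.56 ± 0.19 did not pass (adjusted p = 0.102), but it did with scaling to the median, where it was -0.86 (limma adjusted p = 0.0487). Ei24, first described as p53-induced gene 8, read 17.9 and 17.4 in 4T1-A, then 9.16 and 8.76 in 4T1-S. Arrays of the same sub-line nearly coincided, and the sub-lines lay far apart. These levels rest on 1 spot per array, with no other probe to compare. Ei24 fell by 0.98 ± 0.18 (adjusted p = 0.0219). Leaving out 4T1-S replicate 1 ended the call (limma adjusted p = 0.110), as did leaving out replicate 2 (0.140), using no filter on background (0.0833) and scaling to spike-ins (0.534).

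Sesn2 encodes sestrin 2, which restrains the growth kinase complex mTORC1 and is induced by p53 and by other stress pathways. It read 2.37 and 4.05 in 4T1-A, then 7.71 and 7.10 in 4T1-S. The 4T1-S arrays were close to each other and above both 4T1-A arrays, which themselves stood 1.71-fold apart. Sesn2 rose by 1.25 ± 0.27 (adjusted p = 0.0352). The call depended on the processing and was kept in 7 of 17 alternatives. It was lost with scaling to the median (difference 0.96, adjusted p = 0.0891), quantile normalization (0.0573), cyclic loess (0.0537) and normexp (0.0593). It was also lost with the mean of its probes (0.0520), no filter on background (0.127) and spike-in scaling (0.168), all by limma. It ended too without 4T1-A replicate 1 (0.0809) and with 1 of the 4T1-S arrays left out (0.170 without replicate 1, 0.158 without replicate 2). The other Sesn2 probe read 1.45, 2.41, 4.0 and 3.46, a difference of 0.99 ± 0.27 (adjusted p = 0.0833 over all probes).

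Trp53inp1, a nuclear and autophagy-linked protein that promotes p53 activity, read 0.123 and 0.266 in 4T1-A, then 0.317 and 0.371 in 4T1-S. Both 4T1-S arrays were higher, but the 4T1-A arrays differed 2.16-fold. The difference was 0.92 ± 0.34 (adjusted p = 0.127), and the other probe gave 0.77 ± 0.39 with overlapping values. Without 4T1-A replicate 2 the difference was 1.48, and without 4T1-A replicate 1 it was 0.37.

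**Figure D3:**
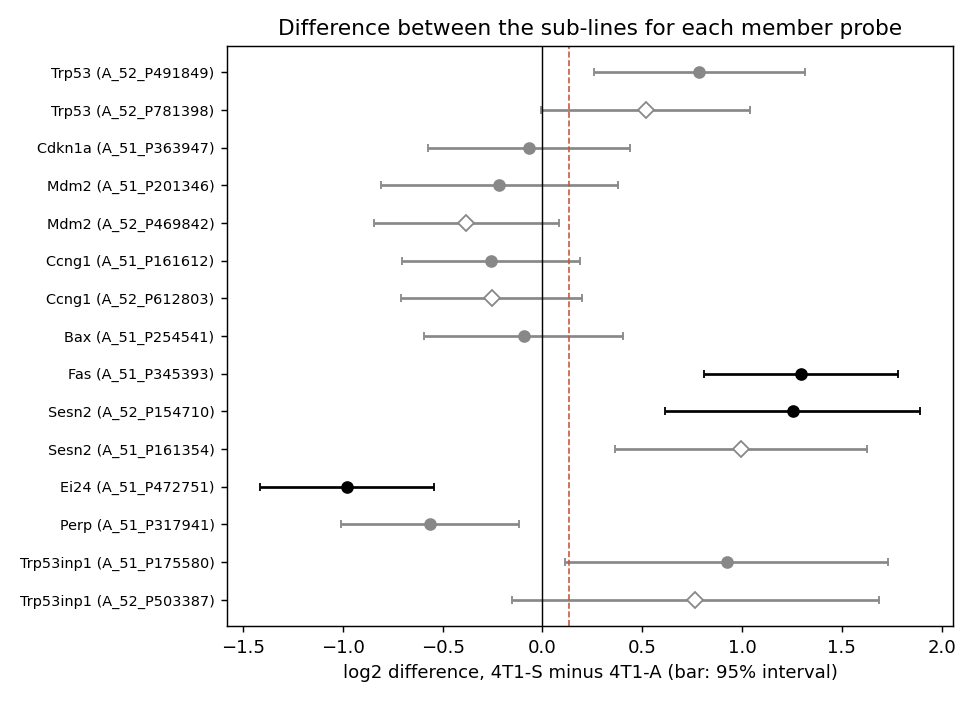
Difference between the sub-lines for the 15 member probes above background on all arrays, on the log2 scale with 95% intervals. Circles mark the probe that stands for its gene, diamonds the other probe, black an adjusted p under 0.05 over all probes, and the dashed line the median of all genes (0.13). Of these probes, 1 each of Fas, Sesn2 and Ei24 passed, and the pairs of probes of a gene lay on the same side of 0.

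Of the 15 probes tested, limma called 3, and where a gene had 2 probes above background their differences had the same sign in each of the 5 genes. The count of called members moved with the arrays used, and with no filter on background or with spike-in scaling it was 0 by limma. With a 4T1-A array left out every member had the same SE, 0.32. Those fits follow the size of the difference alone and take no account of a member's own spread.

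**Figure D4:**
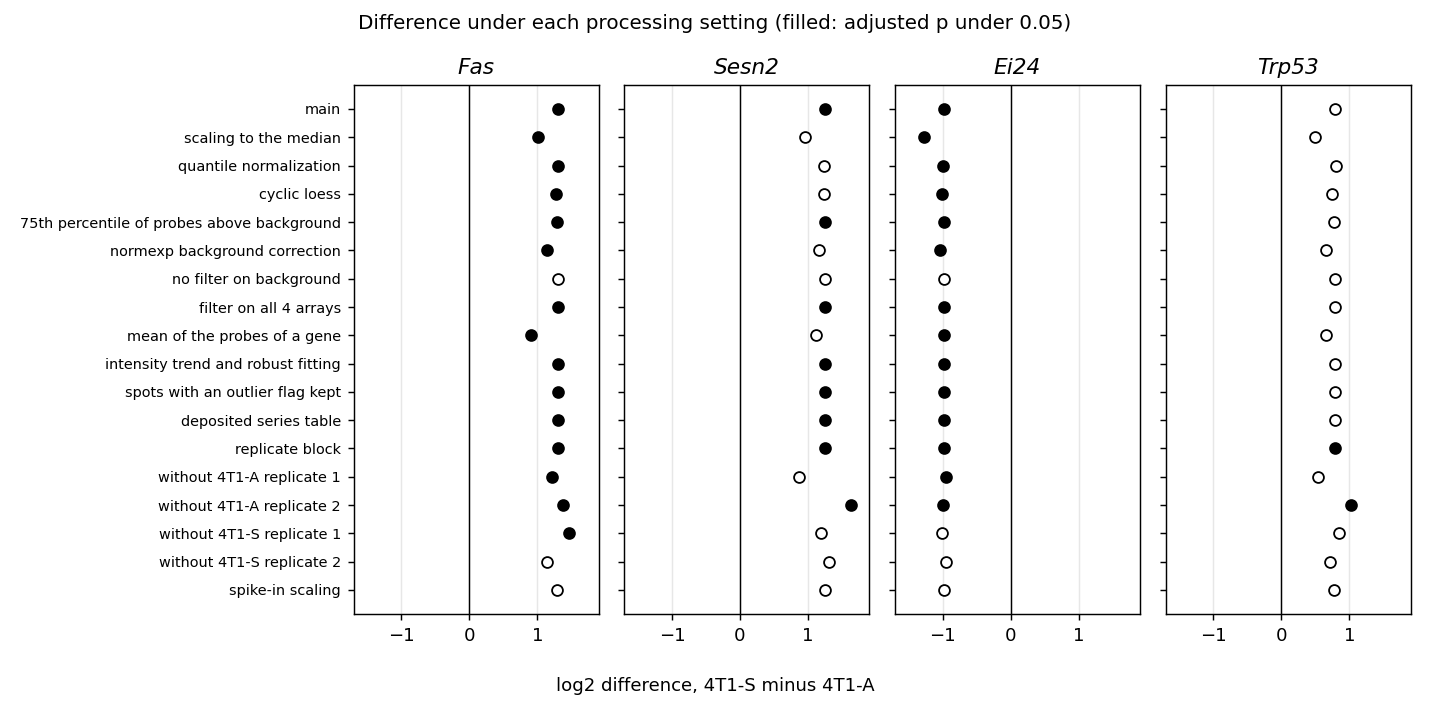
Difference of Fas, Sesn2, Ei24 and Trp53 on the log2 scale in the main analysis and under each of 17 alternatives, filled where limma's adjusted p was under 0.05. The direction of each of these 4 genes was the same in every setting, and Sesn2 passed in the fewest settings among the 3 genes called in the main analysis.

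Of 40 other p53 targets, 33 were tested and limma called 0 of them. Pmaip1, Rrm2b, Gdf15, Eda2r, Steap3 and Cyfip2 were on the array but well above background on 0 arrays. Taking an unadjusted p under 0.05, there were 8 higher and 0 lower, which is 24.2 percent of the list against 28.7 percent of all genes tested (20.5 percent higher and 8.19 percent lower). The median difference was 0.16, close to the 0.13 of all genes. Of the 33, 18 were above 0, a smaller share than the 10173 of 16161 over all genes tested. The brightest were Ddit4, an inhibitor of mTORC1, with a difference of -0.05 ± 0.19, and Epha2, an ephrin receptor, with -0.08 ± 0.18. The 4 with the largest differences, named after their values were seen, were all above 0.7 on the log2 scale. They were Bbc3, which encodes the pro-apoptotic BH3 protein Puma (1.10 ± 0.28, adjusted p = 0.0552), the DNA damage gene Gadd45a (0.83 ± 0.24, 0.0735), Trp53i11 (0.82 ± 0.21, 0.0559) and the lipase Abhd4 (0.78 ± 0.20, 0.0594). Bbc3 read 4.39 and 7.39 in 4T1-A, then 10.8 and 13.7 in 4T1-S. Its 4T1-A arrays stood 1.69-fold apart, with replicate 1 the lower. With an intensity trend and robust fitting limma called 2 of the list higher, and with no filter on background 1 lower. The decamer was found in the promoters of 8 of 31 such genes, or 25.8 percent, against 9.55 percent of all genes with a promoter sequence. This list too was chosen as p53 targets, so the share is a description.

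**Figure D5:**
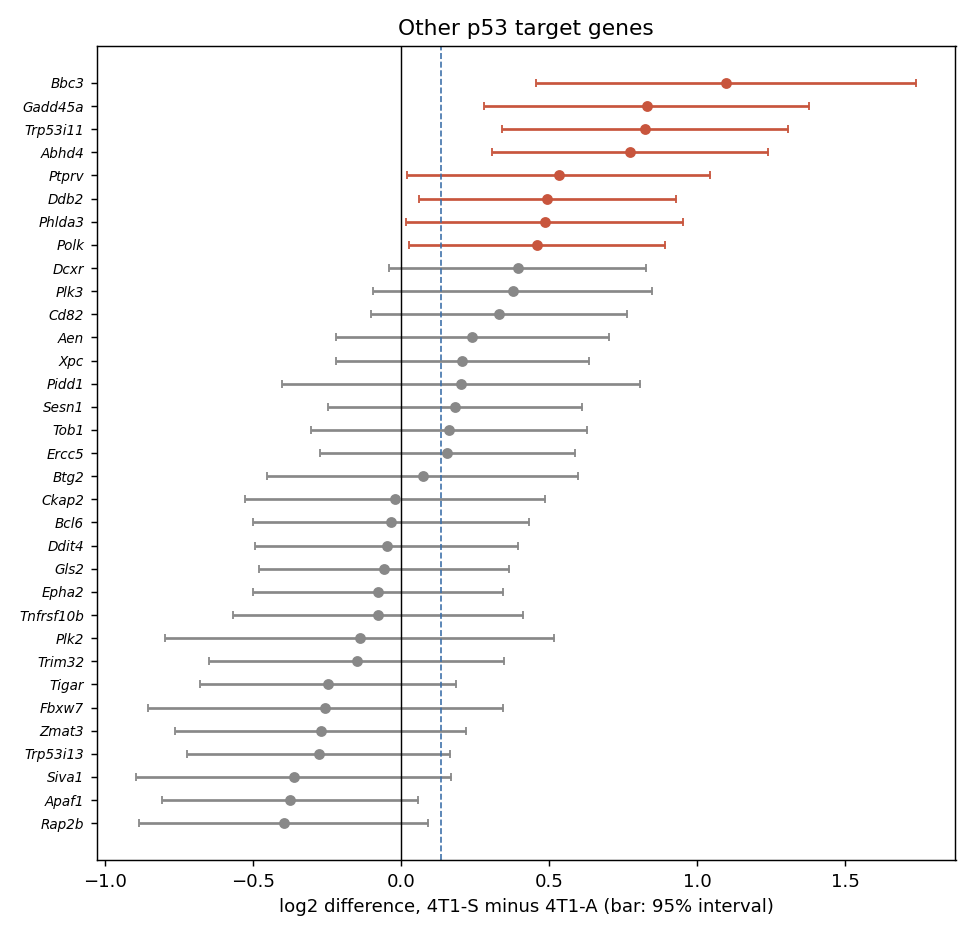
Difference of the 33 tested other p53 targets on the log2 scale with 95% intervals, in order of size. Orange marks an unadjusted p under 0.05 and the dashed line the median of all genes (0.13). The 8 orange genes all lie above 0 and 25 grey ones spread to either side.

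Among regulators and relatives of p53, limma called 0 of 22 tested genes, where 7.01 percent of all genes were called. At an unadjusted p under 0.05 there were 1 higher and 1 lower, where all genes had 20.5 percent higher and 8.19 percent lower. The median difference was 0.02, against 0.13 over all genes. Usp7, a deubiquitinase of Mdm2 and p53, differed by -0.15 ± 0.29, and Brd7, a p53 cofactor, by 0.17 ± 0.19. Chek1, the checkpoint kinase, and Ppm1d, a phosphatase that shuts the p53 response off, were the 2 genes below the unadjusted threshold. Chek1 differed by -0.88 ± 0.24 (adjusted p = 0.0639) and Ppm1d by 0.43 ± 0.18 (adjusted p = 0.170). They were named after their values were seen. Chek1 read 1.96 and 2.69 in 4T1-A against 1.10 and 1.42 in 4T1-S. Cdkn2a, which encodes p16 and the Mdm2 inhibitor p19Arf, reached the background threshold on 0 arrays. The p53 relatives Trp63 and Trp73 were above it on 1 and 2 of 4 arrays and were not tested.

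Of 20 tested BCL-2 family genes and death receptor partners, 1 rose, 0 fell and 19 did not pass. That is 5.0 percent called, near the 7.01 percent of all genes, with a median of 0.05 against 0.13 over all genes. The gene that rose was Bmf, a BH3-only protein that neutralises survival members of the family. It read 0.147 and 0.279 in 4T1-A, then 0.699 and 0.562 in 4T1-S. Bmf rose by 1.63 ± 0.31 (adjusted p = 0.0230), but its 3 probes gave differences from 0.47 to 1.63. Bmf was not called when 4T1-S replicate 1 or replicate 2 was left out (limma adjusted p = 0.146 and 0.116), as with no filter on background (0.117). Mcl1, a survival protein, differed by 0.03 ± 0.21, and Bok, a relative of Bax, by -0.58 ± 0.20 (adjusted p = 0.106). Bok passed under 2 of 17 alternatives, of which scaling to the median gave -0.87 (limma adjusted p = 0.0400). Fasl, the ligand of Fas, was above background on 1 of 4 arrays and was not tested.

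Of 17 tested cyclins, CDK inhibitors and their partners, 0 rose, 1 fell and 16 did not pass. That is 5.88 percent called, near the 7.01 percent of all genes, with a median of 0.02 against 0.13 over all genes. The fall was that of Cdkn2d, which encodes the Cdk4 and Cdk6 inhibitor p19Ink4d. It read 1.34 on each 4T1-A array and 0.728 and 0.649 in 4T1-S, a difference of -0.96 ± 0.19 (adjusted p = 0.0248). Cdkn2d was not called when 1 of the 4T1-S arrays was left out (limma adjusted p = 0.102 without replicate 1, 0.156 without replicate 2), with no filter on background (0.0905) and with spike-in scaling (0.552). Pcna, the replication clamp and a p53 target, differed by 0.20 ± 0.18, and Cdk4 by -0.35 ± 0.19. Rb1, the retinoblastoma protein gene, was chosen after its value was seen and differed by 0.98 ± 0.25 (adjusted p = 0.0545).

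The labelled cell type was checked against markers. All 6 mammary epithelial markers were above background on all 4 arrays, the keratins Krt8 and Krt18 among them. Of the 6, limma called 3 lower in 4T1-S, where 3.01 percent of all genes were. They were Epcam (13.8-fold, adjusted p = 5.5e-05), Krt14 (4.17-fold, 0.00086) and Cdh1 (2.15-fold, 0.0130). Krt5 differed the other way by 0.52 ± 0.20 without passing (adjusted p = 0.138), and Krt8 and Krt18 did not pass. The summed level of the 6 was 240 and 249 in 4T1-A, then 228 and 191 in 4T1-S. The summed level of 6 leukocyte markers was 0.393 and 0.396 in 4T1-A, then 0.470 and 0.565 in 4T1-S. The leukocyte antigen Ptprc was above background on 1 array, and Itgam and Adgre1 on 0. The summed level of 7 fibroblast markers was 0.674 and 0.896 in 4T1-A, then 1.37 and 1.31 in 4T1-S. Of these, Col1a1, a collagen chain, was well above background on the 2 4T1-S arrays alone and entered the test only through them. It was at least 2.59-fold higher there, a bound set by the background of 4T1-A. Its p-value would rest on 4T1-A values below background and is not given. Col1a2 (0.53 ± 0.20, adjusted p = 0.127) and Pdgfra (0.89 ± 0.25, adjusted p = 0.0736) were above background on all 4 arrays and higher on both 4T1-S arrays, without passing. Lum and Pdgfrb were above background on 0 arrays. All 4 endothelial markers together read 0.100 and 0.103, then 0.210 and 0.159, with 1 of 4 above background on any array. On all 4 arrays, 2 of 7 fibroblast, 3 of 6 leukocyte and 0 of 4 endothelial markers were above background, so each of these sums includes dim values. The lowest level that counted as well above background was also higher in 4T1-S, at 0.060 and 0.055, against 0.051 and 0.049 in 4T1-A. The leukocyte, fibroblast and endothelial sums moved the same way as Fas and Sesn2, and their part in those results was not tested.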

How the data were processed

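The submitters' processing notes name Agilent Feature Extraction 9.1. The deposited processed intensity had spatial and multiplicative detrending and surrogate values for dim spots, per the file headers, and is not scaled between arrays. The deposited value matrix holds a ratio, the processed intensity over the array's 75th percentile, which was found from its values. Here log2 of the processed intensity minus the log2 of the array's 75th percentile over 43379 spots other than controls was used, with no pseudocount. Spots flagged as outliers (5 to 9 on an array, 0 of them a member's) were dropped, and spots of a probe were averaged. Of the probes, 22951 were named by RefSeq accession, 9768 by symbol against RefSeq GRCm38.p6 and 8455 by the file. A gene was its brightest probe with a value on every array, tested if well above background on 2 of 2 arrays in 1 sub-line or more. A probe counted as above background on an array where 50 percent or more of its spots were. The linear model of limma 3.58.1 with eBayes (2-sided tests, 2 residual degrees of freedom, R 4.3.3, data.table package 1.17.8) compared the sub-lines, with Benjamini-Hochberg adjustment and a threshold of 0.05. The procedure was tested on simulated data.

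The members and lists were chosen with earlier results of these data known. All members were named. Of each other list, up to 4 rises and 4 falls were named and, where fewer than 2 passed, its 2 brightest tested genes. Others are marked where they appear. The alternatives were 4 scalings, normexp, 2 background filters, the mean of probes, the variance model, flagged spots kept, the deposited values, the replicate block and each array left out. Spike-in scaling was chosen after seeing the data. With it the differences of Fas, Sesn2 and Ei24 were 1.29, 1.25 and -0.98, and every member had the same SE, 0.45.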

Additional observations from a re-analysis of the deposited data

How the results depend on the processing

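Each alternative changed 1 choice. Fas, Sesn2 and Ei24 kept their direction under all 17 and their call under 14, 7 and 13. Called members, 3 in the main analysis, numbered 0 with no filter on background, 0 with spike-in scaling and between 0 and 5 with an array left out. Called member probes (3) numbered 0, 0 and between 0 and 7. Other p53 targets (0 called) gave 1 with no filter, 2 with an intensity trend and robust fitting and 0 to 4 with an array left out. Regulators (0) gave 1 with scaling to the median and 0 to 1 with an array left out. The BCL-2 list (1) gave 2 with scaling to the median, 0 with no filter and 0 to 1 with an array left out. The cyclin list (1) gave 0 with no filter, 0 with spike-in scaling and 0 to 2 with an array left out. With no filter the number of genes tested rose from 16161 to 27658, and the SE of Ei24 moved from 0.18 to 0.16. The cause of these changes in count was not tested for any alternative. Counts with a 4T1-A array left out rest on fits in which all members shared the same SE.

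Directions of small differences that did not pass turned. With an array left out Cdkn1a ranged from -0.22 to 0.0895, Mdm2 from -0.47 to 0.0396, Bax from -0.26 to 0.0759, Ddit4 from -0.15 to 0.0580, Usp7 from -0.49 to 0.18 and Mcl1 from -0.15 to 0.21. With scaling to the median Brd7 was -0.13, Mcl1 -0.26 and Pcna -0.0913, and Mcl1 was -0.0045 with quantile normalization and -0.015 with cyclic loess.

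Over all genes the count of 1133 (646 higher, 487 lower) became 271 with no filter, 616 with the filter on all 4 arrays, 514 with normexp, 385 with spike-in scaling, 744 (270 higher, 474 lower) with quantile normalization and 310 to 1827 with an array left out. With scaling to the median it was 1077 (187 higher, 890 lower), and cyclic loess gave 249 higher and 532 lower. Scaling to the median moved the median difference from 0.13 to -0.16, and differences of that size depend on the scaling.

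The labels number the arrays 1 and 2 in each sub-line but do not say that numbers pair them, and same-numbered arrays deviated together at r = 0.42 across genes, with only 2 pairs. With the replicate block limma called 6 members, with Trp53 (adjusted p = 0.0192), Perp (0.0413) and Trp53inp1 (0.0283) beside Fas, Sesn2 and Ei24. It also called 8 member probes, 4 other targets, 1 regulator, 3 BCL-2 list genes, Bok among them (0.0355), 4 cyclin list genes and 3683 genes in all.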

Other observations

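Several genes of the lists stood further apart between the 2 arrays of 4T1-A than between those of 4T1-S, by the probe that stands for each gene. Trp53inp1 was 2.16-fold higher on replicate 2 than on replicate 1, a gap that 1.20 percent of the genes tested matched or exceeded. The gap was 1.89-fold for Bmf (2.49 percent of genes), 1.71-fold for Sesn2 (4.50 percent), 1.69-fold for Bbc3 (4.86 percent) and 1.52-fold for Gadd45a (9.54 percent), each with replicate 2 the higher. Between the 4T1-S arrays these genes were between 1.04-fold and 1.27-fold apart by the same probes. The other Trp53inp1 probe stood 1.53-fold apart there and 2.29-fold between the 4T1-A arrays, and its values overlapped between the sub-lines. The 5 genes were picked after their values were seen, and by these probes all 5 were higher on both 4T1-S arrays than on either 4T1-A array. Ccne1, from the cyclin list, showed a gap of 1.61-fold the other way, with replicate 1 of 4T1-A the higher.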
